A study of Mus musculus with 12 samples.

Results

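Macrophages make the IL-1 family cytokines IL-1α, IL-1β and IL-18 as precursors, and the last 2 are cut to their active form by caspase-1 once it is recruited to an inflammasome such as the one built on the sensor NLRP3. The IL-1 receptor antagonist, encoded by Il1rn, occupies the same receptor as IL-1α and IL-1β without signaling, so the balance of antagonist and agonist sets the strength of the response. TNF, IL-6 and IL-12 are made by macrophages after contact with microbial products, IL-10 restrains inflammatory activation, and IL-4 drives macrophages toward a tissue repair program.

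The genes described here are 10 inflammatory cytokine and inflammasome genes, Il1a, Il1b, Il1rn, Tnf, Il6, Il10, Il18, Nlrp3, Casp1 and Il12b, which were chosen by name and found in 10 of the 34327 genes measured by RNA-seq. The cells were bone marrow-derived macrophages (BMDMs) from wild-type C57BL/6J mice, grown from marrow in medium conditioned by L929 cells, which supplies the growth factor CSF1. They were then cultured in 6 conditions with 2 libraries each. Untreated TC libraries are of BMDMs kept on plates for tissue culture (TC) without added cytokine, and IL-4 TC libraries of BMDMs on such plates with recombinant murine IL-4 at 20 ng/ml. Low-collagen libraries came from BMDMs embedded in floating gels of rat tail collagen I at 2 mg/ml, untreated or with IL-4 at 20 ng/ml. High-collagen libraries came from BMDMs in such gels at 7 mg/ml, again untreated or with IL-4 at 20 ng/ml. All samples are labelled as cultured for 24 h, although the methods give spans of hours that differ between gels and plates. The questions are whether IL-4 and the culture setting change the expression of these genes, and whether the IL-4 response differs between settings.

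Expression is given in TPM, in which the abundance of transcripts is corrected for their length and shares nearly the same total in every library, so that levels can be compared between genes but carry no sequencing depth. The labels do not say that the 2 libraries of a condition came from separate cultures or mice, so the spread between them may be technical and the p-values measure only that spread. Library numbers run with the culture setting, from 13 to 16 for TC plates, 17 to 20 for high-collagen gels and 21 to 24 for low-collagen gels, and gels had to be broken up in the RNA reagent, a step that plates do not need. Within each setting the untreated libraries have the lower numbers and the IL-4 libraries the higher ones. Culture setting, library order and harvest therefore cannot be told apart, and neither can IL-4 and library order within a setting. In bulk RNA, fewer cells that express a gene and less RNA per cell cannot be told apart either.

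The expression of marker genes fitted the labels. Chil3, a chitinase-like gene induced by IL-4, was at 1.15 and 3.50 TPM in untreated TC libraries and at 565 and 632 TPM in IL-4 TC libraries, and it was at 1.78 to 3.03 TPM in the 4 untreated gel libraries and at 531 to 1855 TPM in the 4 gel libraries with IL-4. Retnla and Mrc1 were likewise higher in both IL-4 libraries than in both untreated libraries of each setting. All 7 macrophage markers examined were expressed, with a summed level of 17460 to 53480 TPM that was mostly Lyz2 (13220 to 48900 TPM), and Adgre1, which encodes F4/80, was at 374 to 767 TPM.

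Markers of other cells were low beside those of macrophages, with 2 lists that were higher in gels and 1 that was lower. Of 8 neutrophil markers 3 had a mean of at least 1 TPM, and Ly6g was at 0 in all 12 libraries. The neutrophil list summed to 24.6 and 19 TPM in untreated TC, 32.1 and 31.3 TPM in IL-4 TC, 104 and 120 TPM in untreated low-collagen, 186 and 167 TPM in IL-4 low-collagen, 85.5 and 76.8 TPM in untreated high-collagen and 165 and 164 TPM in IL-4 high-collagen libraries. Most of this was Csf3r (13.4 to 165 TPM), the receptor of G-CSF. Of 3 monocyte markers 2 had a mean of at least 1 TPM, and their sum was 4.04 and 7.77 TPM in untreated TC, 4.16 and 5.04 TPM in IL-4 TC, 25.2 and 27.4 TPM in untreated low-collagen, 12.7 and 10.9 TPM in IL-4 low-collagen, 42.8 and 42.6 TPM in untreated high-collagen and 16.0 and 17.9 TPM in IL-4 high-collagen libraries. Most of that sum was Ccr2 (2.45 to 36.4 TPM). The sums of both lists were thus higher in gels than on TC plates. The higher neutrophil sum with IL-4 came mostly from Csf3r. Of the other genes of that list, S100a8 was at 12.2 TPM in untreated and 7.20 TPM in IL-4 low-collagen gels and at 6.44 and 3.81 TPM in high-collagen gels, the last of these below the 4.48 TPM of TC plates with IL-4, and S100a9 was at 14.3 and 9.88 TPM in low-collagen and 9.21 and 9.25 TPM in high-collagen gels. The part of these lists in the cytokine levels was not tested. Summed levels were 0.361 to 0.864 TPM for T cell markers, 0 to 0.190 TPM for mast cell and basophil markers with Fcer1a at 0, and 0.841 to 1.84 TPM for dendritic cell markers. They were 0.0608 to 0.668 TPM for fibroblast markers and 0.458 to 3.37 TPM for eosinophil markers with Epx at 0. The eosinophil sum was lower in gels, at 0.458 to 1.41 TPM against 1.67 and 2.28 TPM on TC plates without IL-4 and at 0.753 to 2.26 TPM against 2.76 and 3.37 TPM with it. Without IL-4, Ccr3 was at 1.45 and 1.82 TPM on untreated plates and 0.174 to 0.569 TPM in untreated gels, while Siglecf was at 0.219 and 0.236 TPM on untreated plates and 0.284 to 0.846 TPM in untreated gels. The most abundant genes of these 5 lists were Cd3d, Ms4a2, Zbtb46, Col1a2 and Siglecf, in this order.

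The 10 genes fell into 3 ranges of expression. Casp1, Nlrp3, Tnf, Il1rn, Il18 and Il1b had a mean of 5 TPM or more over the 12 libraries. Il1a had a mean of 2.05 TPM, and Il6, Il10 and Il12b stayed at or below 1.39 TPM in every library. The plot of TPM by library shows each gene over the 6 conditions.

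**Figure D1:**
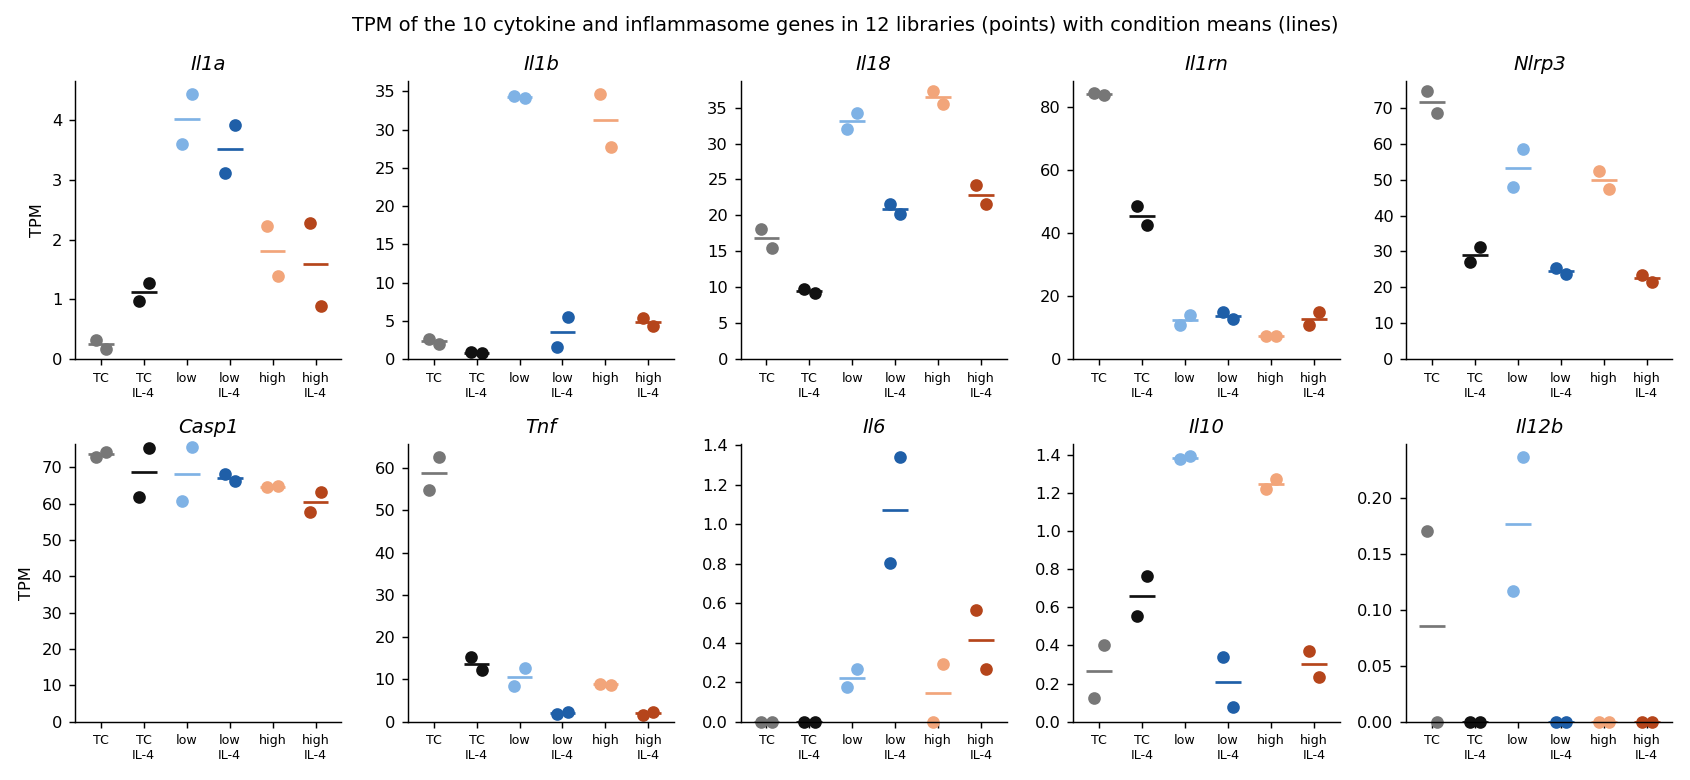
Expression in TPM (vertical axes, linear, each gene on its own scale starting at 0) of the 10 genes in untreated and IL-4 libraries from TC plates, low-collagen gels and high-collagen gels (horizontal axes). Points are the 2 libraries of a condition and lines their mean, and Il1b stands at 27.8 to 34.7 TPM in the 4 untreated gel libraries against 1.95 and 2.66 TPM in untreated TC libraries, while Il1rn shows the opposite order.

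Il1b, which encodes the secreted agonist IL-1β, was far higher in untreated gels than on untreated plates. It was at 2.66 and 1.95 TPM in untreated TC libraries and at 0.934 and 0.739 TPM in IL-4 TC libraries. In low-collagen gels it was at 34.4 and 34.2 TPM untreated and at 1.64 and 5.48 TPM with IL-4. In high-collagen gels it was at 34.7 and 27.8 TPM untreated and at 5.34 and 4.39 TPM with IL-4. The 4 untreated gel libraries thus stood well above all other libraries, the gel libraries with IL-4 fell back toward the level of the plates, and the libraries with IL-4 did not overlap with the untreated ones in any setting.

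Untreated BMDMs in gels had 14.2-fold more Il1b than untreated BMDMs on TC plates by mean TPM, 32.8 against 2.30 TPM, with 3.36 ± 0.29 (SE) as the log2 fold change (adjusted p = 5e-06 by limma, n = 4 against 2). With IL-4 the difference was 5.04-fold, a log2 fold change of 1.42 ± 0.29 (adjusted p = 0.00172 by limma). IL-4 lowered Il1b 9.63-fold in low-collagen gels, from 34.3 ± 0.151 to 3.56 ± 2.72 TPM (SD, n = 2), and 6.42-fold in high-collagen gels, from 31.2 ± 4.87 to 4.87 ± 0.677 TPM (SD, n = 2). The log2 fold changes were −3.09 ± 0.36 and −2.45 ± 0.36 (SE; adjusted p = 0.000634 and 0.00308 by limma). The low-collagen value rests on IL-4 libraries that lay apart, and was −2.44 without replicate 1 and −3.74 without replicate 2 of them. On TC plates the fall was 2.75-fold, with a log2 fold change of −0.84 ± 0.34 (adjusted p = 0.108 by limma). This last call rested on a gene near 1 TPM. It was lost when untreated TC replicate 1 was left out (−0.69, adjusted p = 0.348), when IL-4 TC replicate 1 (−0.92, adjusted p = 0.208) or replicate 2 (−0.76, adjusted p = 0.292) was left out and without the filter on low values (adjusted p = 0.232), with adjusted p from 0.0524 to 0.348 over the alternatives, and a pseudocount of 0.1 moved it to −1.35. The fold changes here and below are of log2(TPM + 1), which understates changes at low levels.

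The fall of Il1b with IL-4 was larger in gels than on TC plates, by −1.93 on the log2 scale (95% interval −2.86 to −1.01, adjusted p = 0.0155 by limma). Between the gel densities the IL-4 response of Il1b differed by 0.64 (95% interval −0.54 to 1.82, adjusted p = 0.709 by limma), a value that was −0.01 without low-collagen IL-4 replicate 1 and 1.29 without replicate 2, and high- and low-collagen gels were at like levels of Il1b without IL-4 (−0.14, 95% interval −0.97 to 0.70). With IL-4 the 2 low-collagen libraries were 1.64 and 5.48 TPM and enclosed both high-collagen libraries. Leaving out low-collagen IL-4 replicate 2, the higher of the 2, gave a difference of 1.15 between the densities that passed the threshold (adjusted p = 0.0822 by limma, from 0.0822 to 0.699 over the alternatives), against 0.50 with all libraries (adjusted p = 0.448).

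Il1a encodes the other agonist, IL-1α, which also acts when released from damaged cells. It was at 0.320 and 0.172 TPM in untreated TC and at 0.977 and 1.27 TPM in IL-4 TC libraries. In low-collagen gels it was at 3.60 and 4.44 TPM untreated and at 3.12 and 3.91 TPM with IL-4, and in high-collagen gels at 2.24 and 1.38 TPM untreated and at 2.28 and 0.896 TPM with IL-4. It was lowest on untreated plates and highest in low-collagen gels, where no library overlapped with any of the high-collagen or TC libraries. Since its mean on TC plates was near or under 1 TPM, Il1a passed the filter on low values through the gel libraries.

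Without IL-4, Il1a was higher in gels than on TC plates by 1.58 ± 0.25 (SE) on the log2 scale (11.8-fold by mean TPM, adjusted p = 0.000296 by limma), which a pseudocount of 0.1 moved to 3.03. As Il1a passed the filter through the gels, its differences from plates come from a gene chosen in part by its level there. Such a filter favors a higher level in gels. With IL-4 Il1a was higher in gels by 0.66 ± 0.25 (adjusted p = 0.0376 by limma), although the groups overlapped. That difference was 1.09 for low-collagen gels alone and 0.24 for high-collagen gels alone, where it did not pass (adjusted p = 0.495, from 0.00696 to 0.495 over the alternatives). IL-4 raised Il1a on TC plates, by 0.77 ± 0.29 (adjusted p = 0.0851 by limma), and the value was 1.84 with a pseudocount of 0.1. That call was lost when untreated TC replicate 2 (0.68, adjusted p = 0.271) or IL-4 TC replicate 2 (0.67, adjusted p = 0.266) was left out, with adjusted p from 0.0194 to 0.271 over the alternatives. In low- and high-collagen gels the change with IL-4 was −0.15 in each (95% intervals −0.85 to 0.55 and −0.85 to 0.54). The high-collagen value was 0.07 without untreated replicate 1 and −0.38 without untreated replicate 2, and −0.55 without IL-4 replicate 1 and 0.24 without IL-4 replicate 2, and the low-collagen value was 0.01 after rescaling, so no direction can be given for either. Il1a had −0.85 ± 0.30 in high- against low-collagen gels with IL-4 (adjusted p = 0.15 by limma) and the same −0.85 ± 0.30 without IL-4, where it did not pass (adjusted p = 0.234) except in a fit of all 12 libraries (adjusted p = 0.164, from 0.164 to 0.558 over the alternatives). The call with IL-4 was lost when high-collagen IL-4 replicate 2 (−0.45, adjusted p = 0.501), low-collagen IL-4 replicate 1 (−0.98, adjusted p = 0.249) or replicate 2 (−0.72, adjusted p = 0.443) was left out and without the filter (adjusted p = 0.288), with adjusted p from 0.101 to 0.501 over the alternatives.

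Il1rn, the antagonist, ran against the agonists between plates and gels. It was at 84.5 and 83.9 TPM in untreated TC libraries and at 48.6 and 42.5 TPM in IL-4 TC libraries. In low-collagen gels it was at 10.7 and 14.0 TPM untreated and at 14.9 and 12.6 TPM with IL-4. In high-collagen gels it was at 7.45 and 7.17 TPM untreated and at 10.8 and 14.9 TPM with IL-4. All 4 TC libraries thus lay above all 8 gel libraries, IL-4 libraries lay below untreated ones on TC plates and above them in high-collagen gels, and in low-collagen gels the 2 groups overlapped.

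Untreated BMDMs had 8.56-fold less Il1rn in gels than on TC plates, 9.84 against 84.2 TPM, with −3.02 ± 0.14 (SE) as the log2 fold change (adjusted p = 9.32e-08 by limma), and with IL-4 they had 3.43-fold less, or −1.71 ± 0.14 (adjusted p = 3.88e-06 by limma). IL-4 lowered Il1rn 1.85-fold on TC plates (−0.88 ± 0.16, adjusted p = 0.00365 by limma) and raised it 1.76-fold in high-collagen gels (0.72 ± 0.19, adjusted p = 0.0365 by limma). In low-collagen gels the value was 0.15 ± 0.19 (adjusted p = 0.568 by limma), and 0.34 after median-ratio rescaling of the libraries, where it passed (adjusted p = 0.159, from 0.159 to 0.928 over the alternatives). The low-collagen value was −0.03 without untreated replicate 1 and 0.33 without untreated replicate 2. Without IL-4 replicate 1 it was 0.03 and without IL-4 replicate 2 0.26, so its size and sign depend on single libraries. The IL-4 response of Il1rn differed between gels and TC plates by 1.31 ± 0.20 (adjusted p = 0.00299 by limma), and between the gel densities by 0.57 (95% interval −0.04 to 1.18, adjusted p = 0.532 by limma). Untreated high-collagen libraries had less Il1rn than untreated low-collagen libraries (−0.68 ± 0.19, adjusted p = 0.146 by limma). That call was lost when high-collagen untreated replicate 1 (−0.70, adjusted p = 0.335) or replicate 2 (−0.65, adjusted p = 0.384) or low-collagen untreated replicate 2 (−0.50, adjusted p = 0.39) was left out, and without the filter (adjusted p = 0.277), with adjusted p from 0.0668 to 0.39 over the alternatives.

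Set against each other, Il1rn and Il1b changed places. Untreated TC libraries held 31.8 and 43.1 TPM of Il1rn for each TPM of Il1b, and IL-4 TC libraries 52.1 and 57.5. Untreated low-collagen libraries held 0.311 and 0.411 and untreated high-collagen libraries 0.215 and 0.258, so that Il1b transcripts exceeded those of Il1rn in the 4 untreated gel libraries. With IL-4 the Il1rn transcripts were again in excess, at 9.13 and 2.30 in low-collagen and 2.02 and 3.40 in high-collagen libraries. Protein of these genes was not measured, so the ratios do not give the balance of antagonist and agonist proteins. As the difference in log2((Il1rn TPM + 1)/(Il1b TPM + 1)), averaged over untreated and IL-4 libraries, gels were below TC plates by −4.76 (exact two-sided permutation test within treatment, p = 0.00444, the smallest that its 225 arrangements allow, and 0.0133 adjusted over the 3 ratio tests). The difference was −6.38 without IL-4 and −3.13 with it, so the mean is that of 2 unequal values. Within each treatment Il1rn and Il1b had each separated gels from plates, in opposite directions. The low exact permutation p followed from that and is no further support. The IL-4 difference averaged over the 3 settings was 2.13 (exact two-sided permutation test within setting, p = 0.037, adjusted 0.0556). It was made up of 3.24 in low-collagen gels, 3.17 in high-collagen gels and −0.0349 on TC plates, so the mean holds for no single setting, and without untreated TC replicate 1 it was 2.08 with an exact permutation p of 0.0556. In IL-4 TC libraries Il1b was under 1 TPM (0.934 and 0.739), so the added 1 compresses the ratio there. Without the added 1, both IL-4 TC libraries (52.1 and 57.5) were above both untreated ones (31.8 and 43.1). The −0.0349 therefore does not show an unchanged ratio on plates, and the −3.13 is reduced in size in the same way. High- against low-collagen gels gave −0.571, with an exact permutation p of 0.222, in a design that cannot go below 0.0556. This value was −0.189 without low-collagen IL-4 replicate 1 and −0.953 without replicate 2 (exact permutation p = 0.556 and 0.0556).

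**Figure D2:**
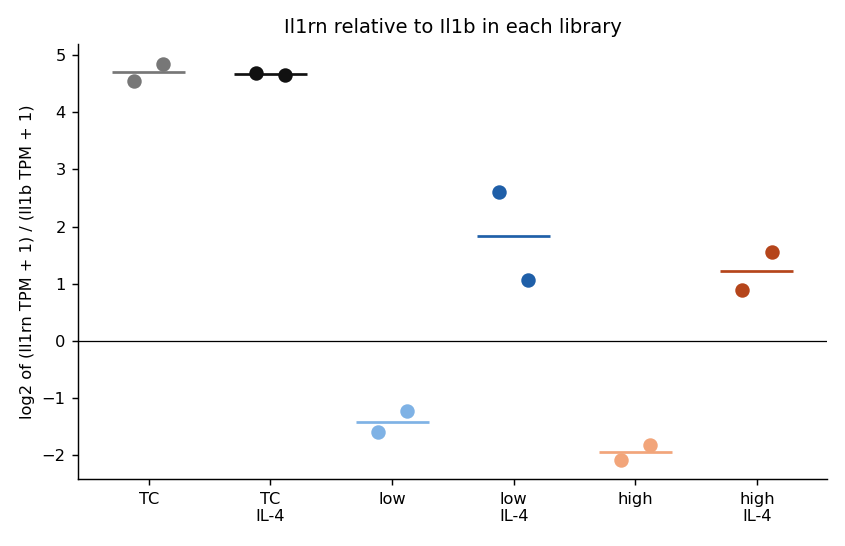
The log2 ratio of Il1rn to Il1b (vertical axis, each TPM plus 1) in the 2 libraries (points) of each condition (horizontal axis), with the mean of the condition as a line. The 4 TC libraries lie at 4.55 to 4.85, the 4 untreated gel libraries below 0 at −2.08 to −1.23, and the 4 gel libraries with IL-4 between them at 0.891 to 2.60.

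Il1a and Il1b are neighbors on chromosome 2 of GRCm38 and lie on the minus strand at chr2:129299610-129309972 and chr2:129364570-129371139, while Il1rn lies on the plus strand of the same chromosome at chr2:24336853-24351494. Since Il1b and Il1rn moved in opposite directions between plates and gels, the bases upstream of their starts are shown, from the RefSeq promoter table on GRCm38.p6, in which 9 of the 10 genes have an entry. The first is the minus strand of chr2:129371140-129371389, the 250 bases before the Il1b start. The second is the plus strand of chr2:24345041-24345290, before the second of 3 Il1rn starts, which lies inside the longer Il1rn gene, and whose last 3 bases are in an annotated Il1rn exon. Capitals mark matches on either strand to any of 4 motifs, GGGNNTTCC for NF-kB, TTCNNNNGAA for STAT6, TGANTCA for AP-1 and TTGCNNAA for C/EBP.
Il1b: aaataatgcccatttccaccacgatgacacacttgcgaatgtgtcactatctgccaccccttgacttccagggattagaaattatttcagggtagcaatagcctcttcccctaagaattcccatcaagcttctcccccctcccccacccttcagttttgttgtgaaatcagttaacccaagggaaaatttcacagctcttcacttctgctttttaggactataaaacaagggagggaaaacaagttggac
Il1rn: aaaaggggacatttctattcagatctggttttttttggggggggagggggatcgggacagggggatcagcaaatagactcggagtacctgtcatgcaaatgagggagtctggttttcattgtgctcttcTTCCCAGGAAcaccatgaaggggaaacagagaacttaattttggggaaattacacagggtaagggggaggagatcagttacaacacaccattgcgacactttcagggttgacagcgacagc
The Il1b window held none of the 4 motifs in these letters. The Il1rn window held 1 match, TTCCCAGGAA, to the STAT6 motif, starting 121 bases before the start, and the window of the third start, 80 bases on, holds the same match. The window of the first Il1rn start, like that of Il1a, held a match to the AP-1 motif. Over all 32851 RefSeq promoter windows of this length, 5.85% held the STAT6 motif, 4.98% the NF-kB motif, 6.75% the AP-1 motif and 9.56% the C/EBP motif. A match describes letters and not binding. A window without a match may still hold a site spelled otherwise, such as an NF-kB site that is not 9 letters long.

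Some reads of these genes could not be assigned with certainty. The Il1a exons share 222 bases with the antisense gene Gm14023, and 10.0% of the 31-base words of the Il1a transcripts occur in it. The methods name no strand setting for the quantification, so reads of the 2 genes cannot be told apart there. Gm14023 was not among the genes measured, so reads from it could have been counted toward Il1a. Il1b shares 25 exon bases but no 31-base word with its antisense gene Il1bos. Il1rn shared 0.379% and Il12b 0.407% of their words with other genes, and the other 7 genes shared none.

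Il18, whose product is activated by caspase-1 like IL-1β, was higher in gels and lower with IL-4. It was at 18.2 and 15.5 TPM in untreated TC and at 9.76 and 9.14 TPM in IL-4 TC libraries. It was at 32.04 and 34.2 TPM in untreated and 21.6 and 20.1 TPM in IL-4 low-collagen libraries, and at 37.3 and 35.6 TPM in untreated and 24.2 and 21.5 TPM in IL-4 high-collagen libraries. The order was untreated gels, gels with IL-4, untreated plates and plates with IL-4, with no overlap between these 4 sets of libraries. Gels exceeded TC plates 2.07-fold without IL-4 (log2 fold change 1.01 ± 0.09 SE, adjusted p = 5.38e-06 by limma) and 2.31-fold with it (1.13 ± 0.09, adjusted p = 2.82e-06 by limma). IL-4 lowered Il18 1.78-fold on TC plates (−0.77 ± 0.10), 1.59-fold in low-collagen gels (−0.64 ± 0.10) and 1.59-fold in high-collagen gels (−0.65 ± 0.10), with adjusted p of 0.000479, 0.0021 and 0.00309 by limma. The IL-4 response differed between gels and plates by 0.12 (95% interval −0.16 to 0.40, adjusted p = 0.6 by limma).

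Nlrp3, the sensor that nucleates the inflammasome, and Casp1, its protease, did not move together. Nlrp3 was at 74.8 and 68.5 TPM in untreated TC and at 27.0 and 31.2 TPM in IL-4 TC libraries. It was at 48.1 and 58.7 TPM in untreated and 25.3 and 23.8 TPM in IL-4 low-collagen libraries, and at 52.5 and 47.5 TPM in untreated and 23.5 and 21.5 TPM in IL-4 high-collagen libraries. In each setting both IL-4 libraries were well below both untreated ones, and untreated plates stood above untreated gels. IL-4 lowered Nlrp3 2.47-fold on TC plates (log2 fold change −1.28 ± 0.11 SE, adjusted p = 3.26e-05 by limma), 2.17-fold in low-collagen gels (−1.08 ± 0.12, adjusted p = 0.000408) and 2.22-fold in high-collagen gels (−1.12 ± 0.12, adjusted p = 0.000547), and the response differed between gels and plates by 0.18 (95% interval −0.14 to 0.49, adjusted p = 0.463 by limma).

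Against TC plates, Nlrp3 in gels was −0.47 ± 0.10 without IL-4 (adjusted p = 0.00207 by limma) and −0.29 ± 0.10 with IL-4 (adjusted p = 0.0247 by limma). All genes had a median log2 fold change of −0.147 and −0.242 in these 2 comparisons. After median-ratio rescaling, which moved those medians to 0.0155 and 0.0146, Nlrp3 was −0.29 without IL-4 and −0.02 with IL-4, where it no longer passed (adjusted p = 0.874, from 0.0212 to 0.874 over the alternatives). The call with IL-4 was also lost without IL-4 TC replicate 2 (−0.19, adjusted p = 0.217).

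Casp1 was the steadiest of the 10 genes. It was at 73.0 and 74.4 TPM in untreated TC, 61.9 and 75.4 TPM in IL-4 TC, 60.7 and 75.6 TPM in untreated low-collagen, 68.3 and 66.2 TPM in IL-4 low-collagen, 64.5 and 64.8 TPM in untreated high-collagen and 57.7 and 63.3 TPM in IL-4 high-collagen libraries. The whole range was 57.7 to 75.6 TPM, and it passed the test in none of the 9 comparisons (limma, adjusted p from 0.204 to 0.946 in the 5 comparisons of IL-4 and of gels with plates, with none of the 5 at an unadjusted p under 0.05). In untreated gels against TC plates, where it was −0.15, it did pass without untreated low-collagen replicate 2 (−0.23, adjusted p = 0.0446) and in 4 other alternatives (adjusted p from 0.0446 to 0.791 over all of them). The direction of Casp1 depends on the scaling. With IL-4 in low-collagen gels it was −0.01 as deposited and 0.19 after median-ratio rescaling, and in gels against TC plates with IL-4 it was −0.10 and 0.18, and both rescaled values passed (adjusted p = 0.153 and 0.0931, the lowest over the alternatives of each, the highest being 1 and 0.878). Without IL-4 TC replicate 1 the latter was −0.24 and also passed (adjusted p = 0.099). High- against low-collagen gels with IL-4 gave −0.15 as deposited and −0.23 after rescaling, which passed (adjusted p = 0.18, from 0.18 to 0.775 over the alternatives).

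Nlrp3 lies on the plus strand at chr11:59541568-59566956 and Il18 on the plus strand at chr9:50554827-50581840. Both fell with IL-4 in all 3 settings, and the windows before a start of each held a match to the STAT6 motif, so they are shown with the same marking of capitals. Il1b and Tnf also fell with IL-4 in all 3 settings, and their windows held no match to that motif. The first is the plus strand of chr11:59542436-59542685, before the second RefSeq start of Nlrp3, inside the annotated gene and outside its exons, and the second the plus strand of chr9:50554450-50554699, before the RefSeq start of Il18.
Nlrp3: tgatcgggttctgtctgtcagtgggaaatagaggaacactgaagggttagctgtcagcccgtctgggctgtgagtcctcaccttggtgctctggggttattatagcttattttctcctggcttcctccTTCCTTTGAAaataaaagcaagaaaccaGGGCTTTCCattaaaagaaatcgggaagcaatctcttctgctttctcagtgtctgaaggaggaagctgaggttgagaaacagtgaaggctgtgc
Il18: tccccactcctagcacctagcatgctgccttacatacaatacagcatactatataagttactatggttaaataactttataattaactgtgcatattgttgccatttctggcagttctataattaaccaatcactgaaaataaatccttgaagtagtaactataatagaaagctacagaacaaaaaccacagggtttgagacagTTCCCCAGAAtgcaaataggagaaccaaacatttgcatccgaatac
The Nlrp3 window held TTCCTTTGAA, a match to the STAT6 motif, 122 bases before the start, and GGGCTTTCC, a match to the NF-kB motif, 94 bases before it. The Il18 window held TTCCCCAGAA, a match to the STAT6 motif, 46 bases before the start. The window of the other Nlrp3 start held 1 match to the NF-kB motif, and that of Il6 matches to the AP-1 and C/EBP motifs. Those of Casp1, Il12b and Tnf held none in the letters searched, which does not show that sites spelled otherwise are absent. Casp1 lies at chr9:5298517-5307265, Tnf at chr17:35199381-35202007, Il6 at chr5:30013114-30019981, Il10 at chr1:131019845-131024974 and Il12b at chr11:44400063-44414033.

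Other genes of inflammasome assembly and cytokine release fell with IL-4 more often than they rose. Of 22 listed genes, which include Nlrp3 and Casp1, 20 were tested. With IL-4, 12 were lower and 1 higher on TC plates, where 24.0% of all genes were lower and 14.7% higher. In low-collagen gels 14 were lower and 2 higher (40.4% and 13.2% of all genes), and in high-collagen gels 11 were lower and 2 higher (22.8% and 11.5% of all genes), with median log2 fold changes of −0.296, −0.352 and −0.237 against −0.0598, −0.192 and −0.1 over all genes. Rescaling changed the counts to 12 lower and 2 higher on TC plates (20.2% and 18.9% of all genes after rescaling), 9 lower and 6 higher in low-collagen gels (21% and 23.5%) and 8 lower and 3 higher in high-collagen gels (14.9% and 16.8%). P2rx7, the ATP receptor upstream of NLRP3, fell 1.76-fold in low-collagen (103 to 58.6 TPM) and 1.51-fold in high-collagen gels (77.5 to 51.4 TPM). Nlrc4, another inflammasome sensor, fell 2.18-fold on TC plates (4.91 to 2.25 TPM) and 2.34-fold in low-collagen gels (6.45 to 2.76 TPM). Mefv, which encodes the sensor pyrin, rose 2.18-fold in high-collagen gels (1.84 to 4.01 TPM).

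Between gels and TC plates the same list tended the other way from Nlrp3. It had 11 genes higher and 5 lower in untreated gels, where 29.7% of all genes were higher and 46.7% lower, and 12 higher and 5 lower with IL-4 (25.7% and 51.8% of all genes), with medians of 0.274 and 0.227. After rescaling these were 14 higher and 3 lower untreated, where 38.7% of all genes were higher and 37.5% lower, and 14 higher and 2 lower with IL-4 (38.6% and 37.3%). Txnip, whose product binds thioredoxin, was at 240 and 242 TPM in untreated TC libraries and at 1321 to 1472 TPM in the 4 untreated gel libraries, 5.71-fold higher (log2 fold change 2.51 ± 0.05 SE, adjusted p = 1.37e-09 by limma). Ninj1, which ruptures the plasma membrane during lytic death, was 2.54-fold higher in untreated gels (569 against 224 TPM) and 2.76-fold higher with IL-4 (367 against 133 TPM). Mefv was 5.46-fold higher in untreated gels, at a low 2.07 against 0.380 TPM, and its log2 fold change of 1.15 was 2.17 with a pseudocount of 0.1. At 0.120 to 0.441 TPM in the TC libraries, Mefv passed the filter on low values through the gels, so this difference comes from a gene chosen in part by its level there.

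Tnf, the early inflammatory cytokine, was lower in gels than on plates and lower with IL-4 than without it. It was at 54.8 and 62.7 TPM in untreated TC and at 15.3 and 12.2 TPM in IL-4 TC libraries. It was at 8.41 and 12.7 TPM in untreated and 1.91 and 2.39 TPM in IL-4 low-collagen libraries, and at 9.04 and 8.76 TPM in untreated and 1.64 and 2.28 TPM in IL-4 high-collagen libraries. Untreated plates were highest and gels with IL-4 lowest, and plates with IL-4 overlapped in part with untreated gels, whose highest library, 12.7 TPM, was above the lower TC library with IL-4. Gels had 6.04-fold less Tnf than TC plates without IL-4 (log2 fold change −2.49 ± 0.17 SE, adjusted p = 9.9e-07 by limma) and 6.69-fold less with it (−2.27 ± 0.17, adjusted p = 2.14e-06 by limma). IL-4 lowered it 4.28-fold on TC plates (−2.02 ± 0.20), 4.90-fold in low-collagen gels (−1.85 ± 0.22) and 4.54-fold in high-collagen gels (−1.75 ± 0.22), with adjusted p of 5.75e-05, 0.000677 and 0.00142 by limma. The IL-4 response of Tnf differed between gels and plates by 0.22 (95% interval −0.32 to 0.77, adjusted p = 0.608 by limma). Tnf and Il1b thus both fell with IL-4, while between plates and gels without IL-4 Tnf was lower and Il1b higher in gels.

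The NF-kB pathway and its feedback genes were given by a list of 26, all tested. With IL-4, 16 were lower and 5 higher on TC plates (24.0% and 14.7% of all genes), 17 lower and 4 higher in low-collagen gels (40.4% and 13.2% of all genes) and 14 lower and 3 higher in high-collagen gels (22.8% and 11.5% of all genes), with medians of −0.333, −0.277 and −0.248. Rescaling changed the counts to 14 lower and 6 higher on TC plates (20.2% and 18.9% of all genes after rescaling), 11 lower and 5 higher in low-collagen gels (21% and 23.5%) and 11 lower and 6 higher in high-collagen gels (14.9% and 16.8%). Nfkbiz, which encodes the nuclear cofactor IκBζ, fell 5.80-fold on TC plates (11.4 to 1.96 TPM), 5.26-fold in low-collagen gels (14.2 to 2.70 TPM) and 4.49-fold in high-collagen gels (14.6 to 3.26 TPM). Tnip3, an inhibitor that binds the deubiquitinase A20, went from 47.7 and 51.4 to 17.3 and 22.2 TPM with IL-4 on TC plates, but from 12.5 and 10.7 to 49.4 and 44.6 TPM in low-collagen gels and from 14.2 and 17.5 to 41.3 and 38.6 TPM in high-collagen gels. Its IL-4 response thus had opposite directions on plates and in gels, with a difference of 2.91 ± 0.17 (SE; adjusted p = 2.02e-05 by limma). Between gels and TC plates 9 genes of the list were higher and 9 lower untreated (29.7% and 46.7% of all genes), with a median of −0.0303 that rescaling moved to 0.142 with 13 higher and 7 lower (38.7% and 37.5% of all genes after rescaling). With IL-4, 12 were higher and 7 lower (25.7% and 51.8% of all genes), and 20 and 6 after rescaling (38.6% and 37.3% of all genes). Birc3, an inhibitor of apoptosis downstream of TNF receptors, was 2.69-fold higher in untreated gels (82.2 against 30.5 TPM).

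Il6, Il10 and Il12b had mean levels under 1 TPM over the libraries, so they did not enter the tests. Il10, the anti-inflammatory cytokine, was at 0.126 and 0.405 TPM in untreated TC and at 0.556 and 0.764 TPM in IL-4 TC libraries. It was at 1.38 and 1.39 TPM in untreated and 0.340 and 0.0747 TPM in IL-4 low-collagen libraries, and at 1.22 and 1.28 TPM in untreated and 0.370 and 0.234 TPM in IL-4 high-collagen libraries. Untreated gels were above all other libraries, and the IL-4 libraries lay under the untreated ones in gels and over them on TC plates. In a fit without the filter, the log2 fold change with IL-4 was −0.99 in low-collagen gels, −0.79 in high-collagen gels and 0.40 on TC plates (adjusted p = 0.00799, 0.0264 and 0.157 by limma), and the response differed between gels and plates by −1.29 ± 0.18 (adjusted p = 0.00715 by limma). Against TC plates, Il10 in gels was 0.88 without IL-4 and −0.41 with it (adjusted p = 0.000859 and 0.0394 by limma).

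Il6 was listed at 0 in the 4 TC libraries. It was at 0.178 and 0.265 TPM in untreated and 0.804 and 1.34 TPM in IL-4 low-collagen libraries, and at 0 and 0.291 TPM in untreated and 0.566 and 0.267 TPM in IL-4 high-collagen libraries. Its highest values were thus those of low-collagen gels with IL-4, 0.75 ± 0.19 above untreated low-collagen gels on the log2 scale in the fit without the filter (SE; adjusted p = 0.0567 by limma). In gels with IL-4 it was 0.77 above plates with IL-4 (adjusted p = 0.00303 by limma). The plate libraries were all listed at 0, so this test compares with a group without spread, and no difference is concluded from it. Il12b, the p40 subunit of IL-12 and IL-23, was at 0.170 TPM in untreated TC replicate 1 and at 0.117 and 0.237 TPM in the untreated low-collagen libraries, and it was listed at 0 in the other 9 libraries. Its log2 fold change with IL-4 in low-collagen gels was −0.23 (adjusted p = 0.0511 by limma). That test, too, compares with a group listed at 0, so no fall is concluded from it. How many reads stand behind such values is unknown, so a value of 0 is no evidence that a transcript was absent.

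The number of genes that passed the test (adjusted p under 0.2 over all genes tested) is set here against all genes. Of the 10 genes 7 were tested, and among these Il1a passed the filter through the gels. With IL-4 on TC plates 6 of the 7 passed, 1 higher and 5 lower, where 38.8% of all 11865 genes passed, 14.7% higher and 24.0% lower. In low-collagen gels 4 passed, all lower, where 53.6% of 11852 genes passed, 13.2% higher and 40.4% lower, and in high-collagen gels 5 passed, 1 higher and 4 lower, where 34.3% passed, 11.5% higher and 22.8% lower. Between gels and TC plates 6 of 7 passed without IL-4, 3 in each direction, a share close to the 76.4% of all genes that passed (29.7% higher, 46.7% lower). With IL-4 it was again 6 of 7, 3 in each direction, where 77.5% passed (25.7% higher, 51.8% lower). The many calls between gels and plates were thus shared by most genes tested, and what set the members apart from each other was direction and size.

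Density and the differences between responses gave fewer calls. For high against low collagen 1 of 7 passed untreated (Il1rn, lower), where 8.02% of all genes passed and 4.79% were lower, and 1 of 7 passed with IL-4 (Il1a, lower), where 21.1% passed and 6.99% were lower. The IL-4 response differed between gels and TC plates for 3 of 7, Il1b and Il1a with a lower and Il1rn with a higher response in gels, where 27.1% of all genes passed, 10.8% higher and 16.4% lower. Between the gel densities it differed by limma for 0 of 7, with none of the 7 at an unadjusted p under 0.05, where 0.363% of all genes passed. These comparisons share libraries, so their outcomes are not independent of each other.

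**Figure D3:**
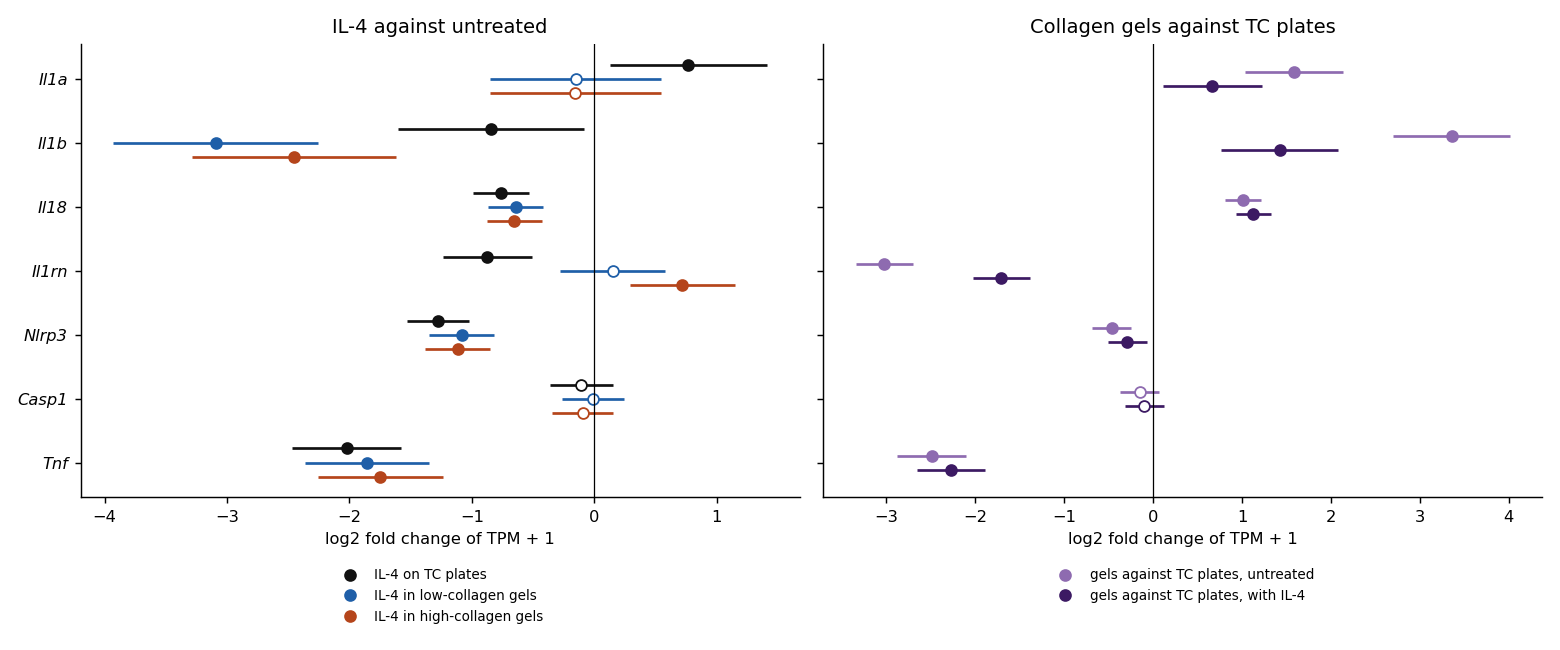
Log2 fold changes of TPM + 1 (horizontal axes) with 95% confidence intervals from limma for the 7 tested genes (vertical axis), for IL-4 against untreated in the 3 settings (left) and for gels against TC plates without and with IL-4 (right). Filled points passed at an adjusted p under 0.2 and open points did not. Il1b and Il1rn show the widest gaps between gels and plates without IL-4, and Tnf shows the widest with IL-4. Nlrp3, Tnf and Il18 fell with IL-4 by like amounts in all 3 settings.

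The higher and lower shares over all genes depend on how libraries are scaled. As deposited, the share of higher genes among those that passed was 38% for IL-4 on TC plates, 24.7% in low-collagen gels and 33.6% in high-collagen gels, and 48.2%, 52.8% and 53.0% after median-ratio rescaling. For high against low collagen it was 40.3% untreated and 66.9% with IL-4, and 51.6% and 47.4% after rescaling. For gels against TC plates it was 38.9% untreated and 33.2% with IL-4, and 50.8% and 50.9% after rescaling. For the IL-4 response it was 39.7% in gels against plates and 53.5% in high against low collagen, and 60.2% and 35.9% after rescaling. Rescaling moved the median of all genes by over 0.1 in IL-4 against untreated low-collagen gels (−0.192 to −0.00414) and in both comparisons of gels with plates given above. Apart from Nlrp3 in gels against plates with IL-4 and Il1a in the IL-4 response of gels against plates, every called gene of the 7 was called in the same direction after rescaling.

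Receptors and binding proteins of these cytokines were given by a list of 15 genes, 12 of them tested. Of these, Il1r2, at 0.196 to 1.33 TPM in the TC libraries, passed the filter on low values through the gels. With IL-4, 4 were higher and 6 lower on TC plates (14.7% and 24.0% of all genes). In low-collagen gels 3 were higher and 3 lower (13.2% and 40.4% of all genes), and 6 and 3 after rescaling (23.5% and 21% of all genes), and in high-collagen gels 4 were higher and 4 lower (11.5% and 22.8% of all genes). In gels against TC plates 5 were higher and 3 lower untreated (29.7% and 46.7% of all genes) and 8 higher and 2 lower with IL-4 (25.7% and 51.8% of all genes), with medians of 0.038 and 0.507. After rescaling these were 6 higher and 2 lower untreated (38.7% and 37.5% of all genes) and 10 higher and 2 lower with IL-4 (38.6% and 37.3%). Il18bp, a secreted protein that traps IL-18, was at 5.38 and 5.03 TPM in untreated TC and at 2.80 and 2.78 TPM in IL-4 TC libraries. It was at 30.99 and 32.9 TPM in untreated and 51.2 and 35.7 TPM in IL-4 low-collagen libraries, and at 19.4 and 22.1 TPM in untreated and 31.4 and 28.0 TPM in IL-4 high-collagen libraries. It was thus higher in every gel library than in every TC library, as Il18 itself was, 5.06-fold without and 13.1-fold with IL-4 (log2 fold changes 2.11 ± 0.13 and 3.28 ± 0.13 SE, adjusted p = 5.55e-07 and 5.3e-08 by limma).

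Among the receptors, Il10ra, a chain of the IL-10 receptor, was 3.56-fold higher in untreated gels (181 against 50.9 TPM) and fell with IL-4 on TC plates (1.93-fold), in low-collagen gels (2.34-fold) and in high-collagen gels (2.02-fold). Il1rap, the accessory chain through which the IL-1 receptor signals, rose with IL-4 on TC plates from 6.71 and 6.61 to 18.6 and 21.01 TPM, and with IL-4 it was 4.27-fold lower in gels than on plates (4.64 against 19.8 TPM). The IL-4 response of Il1rap was lower in gels than on plates by −1.11 ± 0.26 (SE; adjusted p = 0.0215 by limma). Il6st, the signaling chain shared by the IL-6 family, rose 2.90-fold with IL-4 on TC plates (18.9 to 54.9 TPM), 1.83-fold in low-collagen gels and 1.53-fold in high-collagen gels.

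Other inflammatory cytokines and enzymes were given by a list of 20 genes, of which 10 were tested with TC plates and 11 within gels. With IL-4 on TC plates 7 were lower and the other 3 did not pass in limma, where 24.0% of all genes were lower and 14.7% higher. In low-collagen gels 4 were lower and 3 higher (40.4% and 13.2% of all genes), with a median of −0.142 that rescaling moved to 0.0529, and in high-collagen gels 3 were lower and 3 higher (22.8% and 11.5% of all genes), with a median of −0.0355 that rescaling moved to 0.0664. In gels against TC plates 4 were higher and 3 lower untreated (29.7% and 46.7% of all genes), with a median of 0.115. With IL-4, 7 were higher and 3 lower (25.7% and 51.8% of all genes), with a median of 0.871, and rescaling left 7 higher and 1 lower (38.6% and 37.3% of all genes). Among the higher genes with IL-4 was Il27, at 0.553 and 0.608 TPM on plates and 1.71 to 2.10 TPM in gels. It passed the filter on low values through the gels, which favors a higher level there. Tnfsf9, the ligand of 4-1BB, was at 52.4 and 49.7 TPM in untreated TC libraries against 8.74 to 14.1 TPM in the 4 untreated gel libraries, and with IL-4 at 10.3 and 8.69 TPM on TC plates against 3.77 to 9.16 TPM in the 4 gel libraries. It was thus well above all other libraries on untreated plates, and unlike for Tnf the libraries with IL-4 from gels and plates overlapped. Il15, a survival factor of lymphocytes, was 2.90-fold higher in untreated gels (65.2 against 22.5 TPM) and 3.97-fold higher with IL-4 (55.4 against 14.0 TPM). Ebi3, a subunit of IL-27 and IL-35, was 2.47-fold higher in gels with IL-4 (99.0 against 40.1 TPM).

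**Figure D4:**
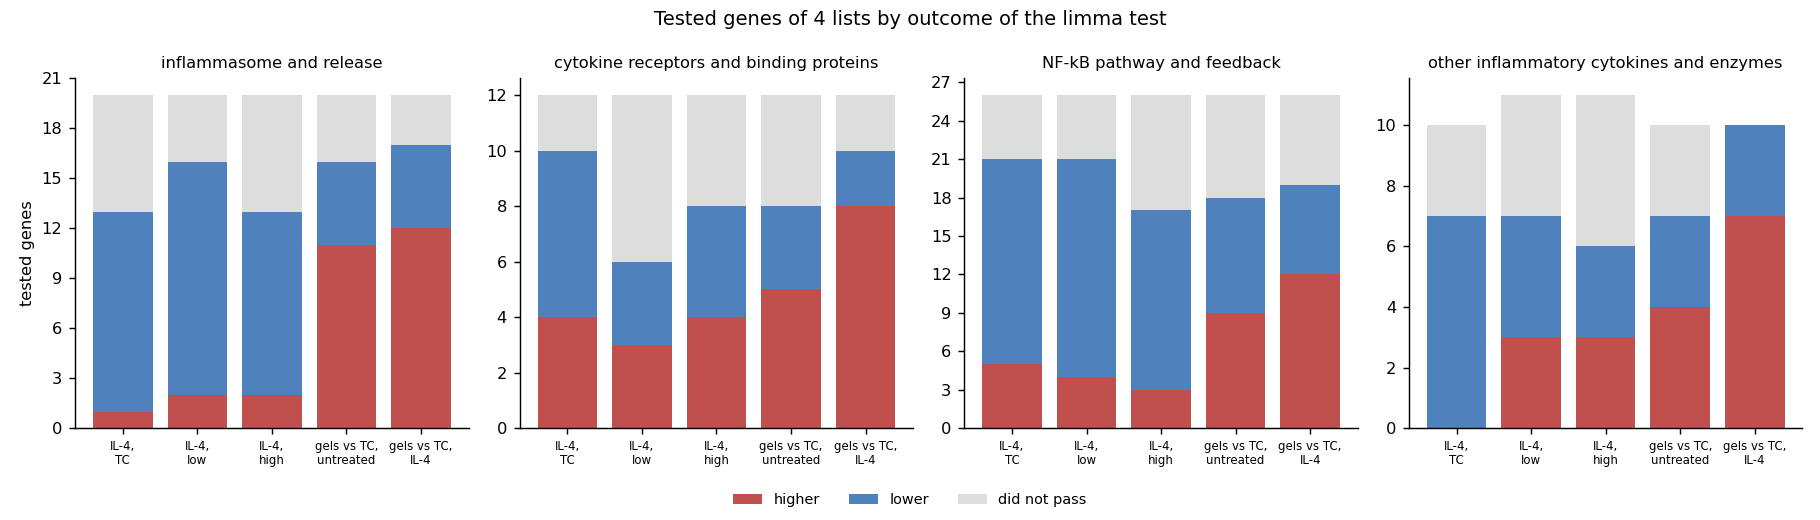
Number of tested genes (vertical axes) of the 4 lists that were higher, lower or did not pass in limma (adjusted p under 0.2), as stacked bars for 5 comparisons (horizontal axes): IL-4 against untreated on TC plates, in low- and in high-collagen gels, and gels against TC plates untreated and with IL-4. In the NF-kB list the lower genes outnumber the higher ones with IL-4 (16 against 5 on TC plates), and in gels against plates with IL-4 the higher ones outnumber the lower ones in all 4 lists.

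The genes whose expression most resembled that of a member over the 12 libraries are given as a description, by Pearson's r of log2(TPM + 1) among genes with a mean of at least 5 TPM, which 6 of the 10 genes had. The libraries form 6 conditions, so such an r mostly reflects condition means. For Il1b they were Enc1, Bphl and Hpgd (r = 0.983, 0.982 and 0.981), and Hpgd, which inactivates prostaglandins, went from 1.41 TPM on untreated plates to 15.7 and 17.1 TPM in untreated low- and high-collagen gels and to 0.969 and 2.27 TPM there with IL-4. For Il1rn they were Csrp1, Lilr4b and Mid1 (0.989, 0.989 and 0.988), and for Tnf Slc20a1, Pdcl3 and Ptk2b (0.992, 0.99 and 0.988). For Il18 they were Parp8, Lyz2 and Il10ra (0.989, 0.989 and 0.987), for Nlrp3 Rnf141, Pilrb1 and B3galnt1 (0.982, 0.974 and 0.971) and for Casp1, which varied little, Alg13, Magohb and Atg9a (0.898, 0.892 and 0.876). Between members, r was 0.911 for Il1b with Il18, 0.827 for Tnf with Nlrp3 and 0.744 for Il1rn with Tnf. It was −0.771 for Il1rn with Il18 and −0.723 for Il1rn with Il1b.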

How the data were processed

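RNA-seq libraries of BMDMs were made with a stranded mRNA kit and quantified by the authors with kallisto 0.46.1 on the GRCm38 transcriptome, and the deposited table holds TPM per gene. How transcripts were summed to genes is not given in the sources used here. TPM keep no depth, so no counting interval can be given. In the table, 129 repeated lines were collapsed. A symbol on several rows was taken from the row with the highest mean. Genes with a mean of at least 1 TPM were tested on log2(TPM + 1) with limma 3.58.1 in R 4.3.3, with 1 mean per condition and a trend of variance on mean level, p-values were adjusted over all genes tested by Benjamini-Hochberg, and genes were called at an adjusted p under 0.2. Comparisons within gels used the 8 gel libraries and those with TC plates all 12. The fit was tested on simulated data. Members and lists were chosen with earlier results of these data known. All members are named. From each list, the 3 called genes with the largest absolute fold change in a comparison could be named, and the text names part of them. Alternatives were another pseudocount, filter, scaling, threshold and set of libraries, the replicate number as a block, and each library left out.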

Additional observations from a re-analysis of the deposited data

Results flagged for a closer look

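Of the 7 genes tested, 3 had an IL-4 response that differed between gels and TC plates by limma's test of the difference itself. The differences, in gels minus that on plates on the log2(TPM + 1) scale, were −1.93 ± 0.41 (SE; adjusted p = 0.0155) for Il1b, which fell in both settings and further in gels, and 1.31 ± 0.20 (adjusted p = 0.00299) for Il1rn, which fell on plates. For Il1a, which passed the filter on low values through the gels, it was −0.92 ± 0.35 (adjusted p = 0.129 by limma). That of Il1a did not pass with untreated TC replicate 1 (−1.01), untreated TC replicate 2 (−0.84), IL-4 TC replicate 2 (−0.82), untreated high-collagen replicate 1 (−0.81), untreated low-collagen replicate 2 (−0.86) or IL-4 low-collagen replicate 1 (−0.86) left out, nor after median-ratio rescaling (−0.77), for high-collagen gels alone (−0.92) or without the filter on low values (−0.92), and a pseudocount of 0.1 moved it to −2.08 (adjusted p from 0.0516 to 0.3 over the alternatives).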

How the results depend on the processing

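Each value was recomputed with a pseudocount of 0.1, no filter, a mean of at least 5 TPM, median-ratio rescaling, a threshold of 0.05, other libraries in the fit and each library left out. Where a group is left with 1 library, its spread is taken from the other groups. The number of the 7 genes called moved by over 1.5 times in 3 comparisons. For IL-4 in low-collagen gels it was 4, and 7 of all 10 without the filter. For high against low collagen, untreated, it was 1, and 0 without the filter, 0 at a threshold of 0.05, 2 with all 12 libraries, and 0 to 1 with a library left out. For high against low collagen with IL-4 it was 1, and 0 without the filter, 0 at a mean of at least 5 TPM, 2 after rescaling, 0 at a threshold of 0.05, and 0 to 1 with a library left out. Without the filter more genes are tested. The cause of the other moves was not tested. The IL-4 difference in the Il1rn to Il1b ratio was from 1.87 to 2.38 with a library left out, 2.08 (exact permutation p = 0.0556) without untreated TC replicate 1. The direction of Casp1 turned after rescaling, to 0.194 with IL-4 in low-collagen gels and to 0.181 in gels against TC plates with IL-4.

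With the replicate number as a replicate block, 7 in place of 6 genes were called in untreated gels against TC plates, and the count was the same in the other 8 comparisons. The numbers share only a label: replicate differences correlated at −0.123 to 0.109 over 15 pairs of conditions, with 1 above 0.1.

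Of 830 alternative values of the 7 genes in the 9 comparisons, 787 kept the outcome of the test, 31 lost the call, 10 gained it and 2 passed with the direction turned. Values that passed in neither fit could change sign and are among the 787. Of 1464 values of other named genes, 1346 kept the outcome, 115 lost the call and 3 gained it. Of 960 counts of a list in 1 direction, 163 moved by over 1.5 times. TPM carry no depth, so which differences of the lowest genes depth would allow cannot be said.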
